A study of Mus musculus with 22 samples.

Results

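Complement components and receptors were followed in lung myeloid cells of mice that make SP-C I73T, a mutant surfactant protein C. The genes were the classical pathway chains *C1qa*, *C1qb* and *C1qc*, the components *C3*, *Cfb* and *Cfp*, the anaphylatoxin receptors *C3ar1* and *C5ar1*, and the inhibitor *Serping1*. They were taken by name, with earlier results of these data known. They are 9 genes of the 31116 listed in both count tables (55421 genes for monocytes and 31134 for macrophages). All 9 passed the filter on low counts in the fits reported here. RNA was sequenced from 22 samples of cells sorted from lung digests after lavage. CD11b+Ly6Chi monocytes came from control mice (4 samples), mice 3 d (4 samples) and mice 14 d (4 samples) after tamoxifen, and SigF+CD11b- alveolar macrophages from 4, 3 and 3 samples of the same kinds. All mice were adult C57BL/6 animals labelled SP-C I73T mutant. In this line a neomycin cassette holds mutant expression down, and a single gavage of tamoxifen activates an estrogen receptor-controlled Flp-O recombinase, carried at the Rosa26 locus and so not restricted to the epithelium, which removes the cassette. The labels call the controls untreated. The study's account of the monocyte RNA sequencing calls its controls oil treated mutant mice, and its methods describe controls in general as such mice pooled with tamoxifen treated mutant mice without Flp-O. The labels number the samples of a group but do not say whether each came from a separate mouse, so p-values measure the spread between these samples.

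Complement is a cascade of plasma proteins that is also made by cells within tissues. In the classical pathway C1q, built from the products of *C1qa*, *C1qb* and *C1qc*, binds antibody, dying cells or other surfaces and starts cleavage of the later components, and tissue macrophages are a main source of it. In the alternative pathway factor B (*Cfb*) and properdin (*Cfp*) form and hold together the enzyme that cleaves C3, the component on which all routes converge. Cleavage releases the anaphylatoxins C3a and C5a, which act on myeloid cells through C3aR (*C3ar1*) and C5aR1 (*C5ar1*), while C1 inhibitor (*Serping1*) blocks the proteases that C1q carries.

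Monocyte libraries held 15451460 to 28789639 counts and macrophage libraries 4610720 to 17074863, with the lowest totals in the 14 d macrophages (4610720 to 6838893). A floor of 3 counts was worth 0.104 to 0.194 CPM (read counts relative to library size, with TMM factors within a cell type) in monocytes and 0.176 to 0.651 CPM in macrophages, and covers counting error only. Changes are log2 fold changes from edgeR's quasi-likelihood test, and a gene was called when its adjusted p was under 0.05 and its fold change above 1.5. Weakly expressed genes were higher as a class in the 3 d monocytes and the 14 d macrophages. In the same groups mitochondrial genes took 2.10 to 3.62% of counts (0.969 to 1.41% in control monocytes) and 2.33 to 3.95% (1.76 to 2.05% in control macrophages; 2.67 to 3.30% at 3 d), and 40119 to 41134 genes were detected in 3 d monocytes against 24775 to 30865 in controls. Their part in the results was not tested. Of genes with a mean log2 CPM up to 1, 66.6% were called higher in the former and 77.9% in the latter, against 0.874% and 4.27% of genes above 5. The median log2 fold change of all genes, 0.22 and 0.18 in these comparisons, became 0.70 and 0.61 with scaling to library size alone, so changes of moderate size there depend on the scaling. Sex differed with time. The 14 d libraries of both cell types had 433 to 3033 counts of Y chromosome genes and 1 to 32 of *Xist*, and the control and 3 d libraries had 0 to 3 and 552 to 4444, so sex and day 14 cannot be told apart. The monocytes carried their defining markers, with *Ly6c2* at 2866 ± 307 CPM (SD, n = 4) in controls against 2.22 ± 0.88 (SD, n = 4) in control macrophages, which in turn had *Siglecf* at 304 ± 52 against 14.0 ± 12.5. At 14 d the macrophages also had *Itgam*, the gene of CD11b, at 76.3 ± 24.1 (SD, n = 3) against 1.76 ± 0.89 CPM, although the gate excluded CD11b. In bulk RNA, fewer cells of a type and less RNA per cell cannot be told apart.

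The 3 C1q genes lie side by side on the minus strand of chromosome 4 (GRCm38, GENCODE), within 18675 bases at chr4:136880129-136898803. *C1qb* (ENSMUSG00000036905, chr4:136880129-136886187) is 3616 bases from *C1qc* (ENSMUSG00000036896, chr4:136889804-136893065), which is 2851 bases from *C1qa* (ENSMUSG00000036887, chr4:136895917-136898803). *C3ar1* (ENSMUSG00000040552) is on chromosome 6 (chr6:122847138-122856161). Because these were the genes that were higher together at 14 d, the bases before their RefSeq start sites (GRCm38.p6, minus strand) are shown. They run up to the end of the gene as GENCODE draws it. The set of RefSeq promoter windows used here held none for *C1qa*. For *C1qb* these are chr4:136886201-136886450, for *C1qc* chr4:136893066-136893164 and for *C3ar1* chr6:122856162-122856407, and capitals mark the motifs found.
C1qb: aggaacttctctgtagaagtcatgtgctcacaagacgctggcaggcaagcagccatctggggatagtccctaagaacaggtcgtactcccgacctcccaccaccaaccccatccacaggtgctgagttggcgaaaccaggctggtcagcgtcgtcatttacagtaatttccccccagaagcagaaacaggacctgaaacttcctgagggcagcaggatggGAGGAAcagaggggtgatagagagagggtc
C1qc: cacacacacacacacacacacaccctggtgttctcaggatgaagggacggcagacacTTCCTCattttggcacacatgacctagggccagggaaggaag
C3ar1: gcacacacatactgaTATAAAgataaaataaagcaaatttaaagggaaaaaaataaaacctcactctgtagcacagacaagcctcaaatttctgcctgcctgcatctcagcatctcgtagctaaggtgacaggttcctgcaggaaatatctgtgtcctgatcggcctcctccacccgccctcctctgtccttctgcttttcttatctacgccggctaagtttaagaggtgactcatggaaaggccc
Among 5 motifs searched on both strands in the 250 bases before each RefSeq start, GAGGAA, the core bound by ETS factors such as PU.1, was found in *C1qb* on the gene's strand at position -30 from the start. In *C1qc* its reverse complement lay at position -193. TATAAA was found in *C3ar1* at position -235. TGCTGAC, TTCNNNGAA and the interferon-stimulated response element core were not found in the windows of *C1qb*, *C1qc*, *C3*, *Cfp*, *C3ar1* or *C5ar1*. Of 32851 such windows over 27025 genes, 23.3% held GAGGAA, 12.4% TATAAA, 7.02% TTCNNNGAA, 3.81% TGCTGAC and 2.98% the response element core, so these matches are common and describe letters only.

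In monocytes the C1q chains were higher at 14 d than in both other groups. *C1qa* was at 2.24, 8.39, 12.9 and 6.96 CPM in the control libraries (54 to 322 counts), 7.48, 6.29, 36.3 and 19.8 at 3 d, and 118, 196, 322 and 124 at 14 d (2535 to 6054 counts). All 14 d libraries stood above all libraries of the other groups. *C1qb* was at 18.1, 33.1, 72.4 and 36.5 CPM in controls, 23.0, 24.2, 136 and 81.7 at 3 d, and 383, 651, 904 and 385 at 14 d. *C1qc* was at 4.39, 10.004, 23.4 and 12.6 CPM in controls, 9.83, 8.08, 39.1 and 24.1 at 3 d, and 147, 233, 401 and 167 at 14 d. Replicate 3 was the highest of every group for each chain, and the 14 d range overlapped no other. The increase over control was 4.64 ± 0.70 (SE, edgeR adjusted p = 0.00143) for *C1qa*, 3.86 ± 0.66 (adjusted p = 0.00305) for *C1qb* and 4.23 ± 0.65 (adjusted p = 0.00147) for *C1qc*. With *C3ar1*, 4 of the 9 genes were called higher at 14 d, against a background of 3.22% of the 22353 genes tested, and none lower, against 5.34%. Because the genes were chosen with earlier results of these data known, these shares are no test of the list. From 3 d to 14 d the chains rose by 3.45 ± 0.66, 3.14 ± 0.64 and 3.55 ± 0.62 (adjusted p = 0.00266, 0.00333 and 0.00187). In that step 5 genes were called higher (12% of all genes) and none lower (34.5%), the others being *C3ar1* and *C5ar1*. That no gene was called lower depended on the setting. *Cfp* was called lower in 5 and *Cfb* in 4 of 9 other settings. From control to 3 d the chains did not pass the threshold, with *C1qa* at 1.19 ± 0.62 (adjusted p = 0.122), *C1qb* at 0.72 ± 0.59 and *C1qc* at 0.68 ± 0.58, and control and 3 d libraries overlapped. *C1qa* was called at 3 d with library size scaling (1.68), and when 3 d replicate 2 was left out (1.498).

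In macrophages the C1q chains were at 4.00 CPM or below in controls and far higher at 14 d. *C1qa* was at 0.411, 2.20, 4.00 and 0.996 CPM in the control libraries (6 to 61 counts), 6.52, 2.79 and 2.61 at 3 d, and 154, 61.0 and 157 at 14 d (484 to 1072 counts). *C1qb* was at 0.548, 1.29, 3.47 and 0.465 CPM in controls, 7.67, 3.88 and 2.61 at 3 d, and 199, 94.3 and 202 at 14 d. *C1qc* was at 0.411, 0.456, 1.44 and 0.398 CPM in controls, 3.37, 2.87 and 1.88 at 3 d, and 99.1, 48.1 and 104 at 14 d. Every 14 d library stood above every other library for each chain, and *C1qc* at 3 d also did not overlap control. Against control, *C1qa* rose by 6.01 ± 0.67 (adjusted p = 0.000108), *C1qb* by 6.81 ± 0.66 (adjusted p = 4.93e-05) and *C1qc* by 6.91 ± 0.41 (adjusted p = 2.84e-07). Without control replicate 3, the highest control for each chain, these were 6.71, 7.76 and 7.60. Together with *C3ar1* and *Serping1*, 5 genes were called higher at 14 d, where 39.4% of the 20944 genes tested were called higher, and *C3* and *C5ar1* were called lower, as were 22.9% of all genes. From 3 d to 14 d the chains rose by 4.93 ± 0.71, 5.09 ± 0.67 and 4.92 ± 0.40 (adjusted p = 0.000699, 0.000452 and 9.05e-06). In this step 5 genes were called higher (36.3% of all genes) and none lower (20.0%), again with *C3ar1* and *Serping1* added. At 3 d the chains were not called against control, with *C1qc* the nearest at 1.99 ± 0.46 (adjusted p = 0.0564), and *C1qc* was called with DESeq2 (2.05) and without control replicate 3 (2.68) or 14 d replicate 2 (1.99).

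**Figure D1:**
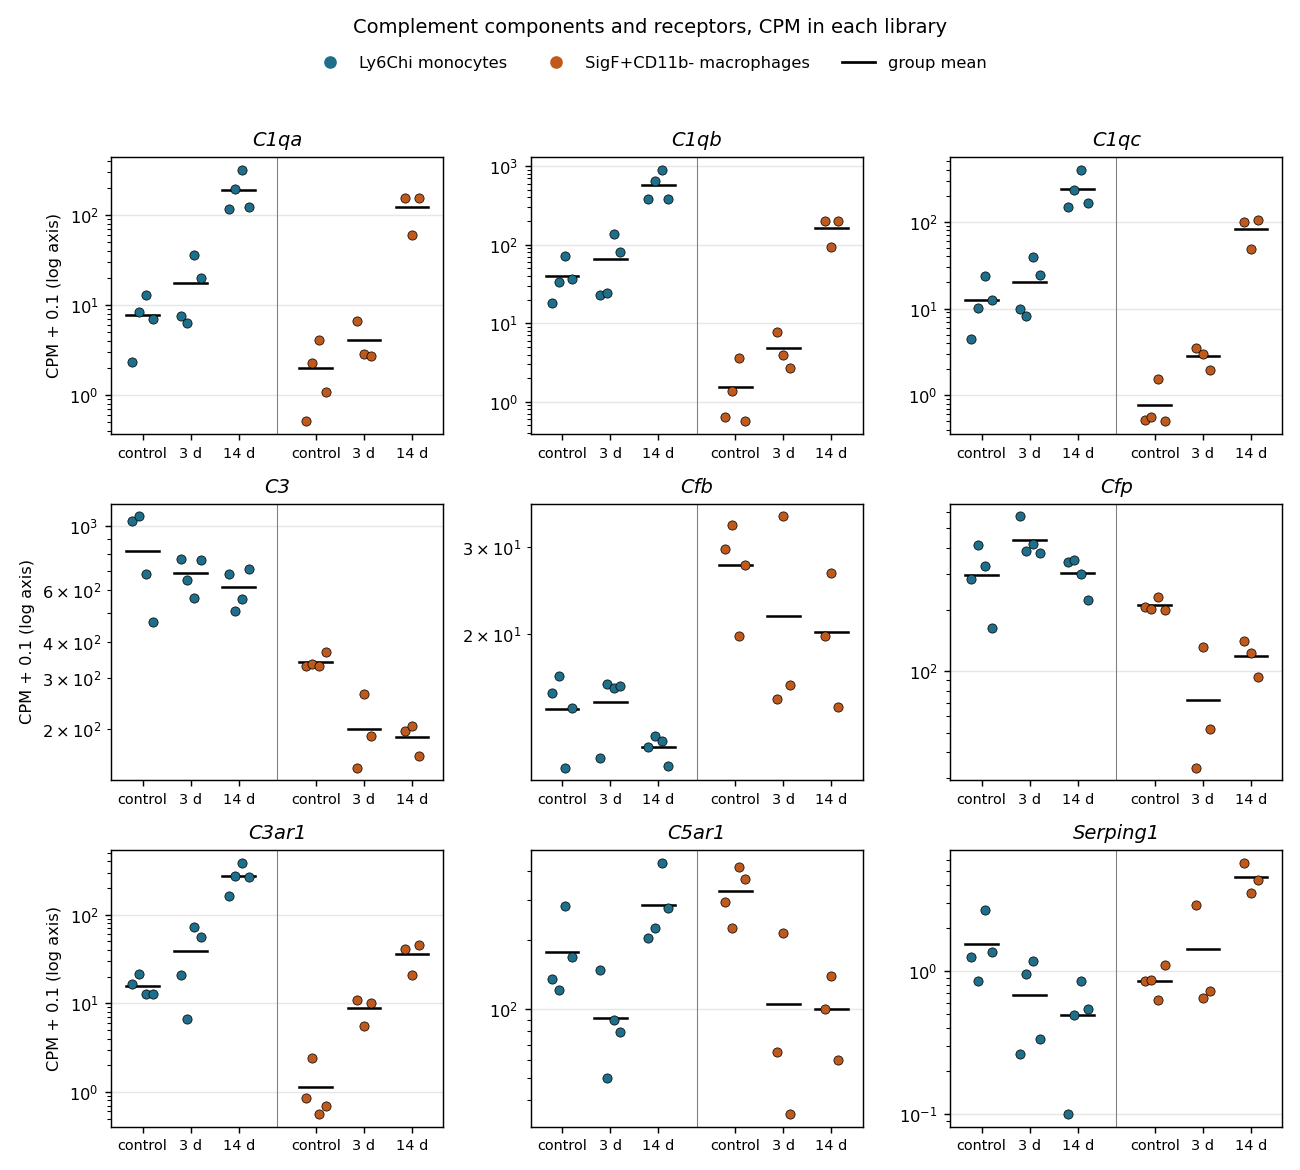
CPM in each library, plus 0.1 and on log axes, for the 9 complement genes in control, 3 d and 14 d monocytes (blue, 4 libraries a group) and macrophages (orange, 4, 3 and 3 libraries). Points are libraries and bars group means. For the 3 C1q chains and C3ar1 every 14 d library stands above every control library of its cell type.

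Marker genes of other cells also changed in the 14 d groups, and their part in the result was not tested. In 14 d monocytes, 6 of 12 markers of interstitial or monocyte-derived macrophages were called higher and 3 lower against control (3.22% and 5.34% of all genes). Their summed level was 3377 to 10398 CPM against 4041 to 8357. Among them *Trem2*, a lipid receptor, was at 210 ± 59 against 67.5 ± 16.4 CPM (SD, n = 4), while the fractalkine receptor gene *Cx3cr1* was at 222 ± 34 against 776 ± 297, and *Lyve1* and *Fcgr1* were also called lower. *Ly6c2* was at 1498 ± 215 CPM (SD, n = 4), neutrophil markers summed to 691 to 1494 CPM against 201 to 299 (1 of 8 called higher), and 4 of 8 T or NK cell markers and 4 of 4 B cell markers were called lower. In 14 d macrophages 39.4% of all genes were called higher and 22.9% lower, and the calls among markers there stand against those shares. Of 12 interstitial macrophage markers 6 were called higher and 3 lower, with a summed level of 1420 to 1637 CPM against 1961 to 2373. Of 8 markers of Ly6Chi monocytes, 4 were called higher and none lower. These were *Itgam*, *F13a1* (14.4 ± 8.7 against 0.5004 ± 0.289 CPM), *Ccr2* (53.8 ± 29.6 against 18.1 ± 5.7) and *Vcan* (9.73 ± 6.10 against 2.02 ± 0.77, SD, n = 3 and 4). *Ly6c2* was at 3.55 ± 2.52 against 2.22 ± 0.88 without a call. The summed level of this list was 20615 to 25765 CPM against 21288 to 25412. The list shares *Chil3* with the alveolar macrophage list. It summed to 16499 to 28805 in control monocytes, so its sum does not separate the cell types. Of 5 dendritic cell markers 3 were called higher, with a sum of 16.4 to 38.0 against 5.40 to 16.7 CPM. Neutrophil markers summed to 413 to 1589 CPM against 69.3 to 213 (6 of 7 tested higher), stromal or endothelial markers to 164 to 348 against 22.6 to 32.3 (5 of 6 higher), and alveolar macrophage markers to 22673 to 28709 against 28309 to 33496 (7 of 10 lower). No marker of any list was at 0 in all libraries of a group.

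The ratios between the C1q chains did not overlap between the cell types. With these sample numbers none of the 9 tests could pass 0.05 after adjustment, so the tests cannot decide on a difference. Per kilobase of exon, the ratio of *C1qb* to *C1qa* counts was 5.47 ± 1.67 (SD, n = 4) in control monocytes, 3.54 ± 0.43 at 3 d and 2.99 ± 0.22 at 14 d (SD, n = 4 each). In macrophages it was 0.778 ± 0.368 (SD, n = 4) in controls, 1.14 ± 0.19 at 3 d and 1.31 ± 0.14 at 14 d (SD, n = 3 each). No library overlapped between the cell types at any time. *C1qc* to *C1qa* was 0.913 ± 0.184, 0.659 ± 0.058 and 0.677 ± 0.036 in monocytes, and 0.265 ± 0.188, 0.406 ± 0.139 and 0.376 ± 0.043 in macrophages, with no overlap either. *C1qb* to *C1qc* lay closer together, at 5.95 ± 0.97, 5.41 ± 0.91 and 4.42 ± 0.45 in monocytes and 3.44 ± 1.44, 2.97 ± 0.93 and 3.50 ± 0.06 in macrophages. Exact permutation tests, two-sided, gave p = 0.0286 for controls and 0.0571 at 3 d and 14 d, each the smallest the sample numbers allow, and all 9 had an adjusted p (Benjamini-Hochberg) of 0.0571. The control macrophage ratios rest on 6 to 61 counts per chain and library. Cell type and the separate count tables cannot be told apart in this comparison.

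**Figure D2:**
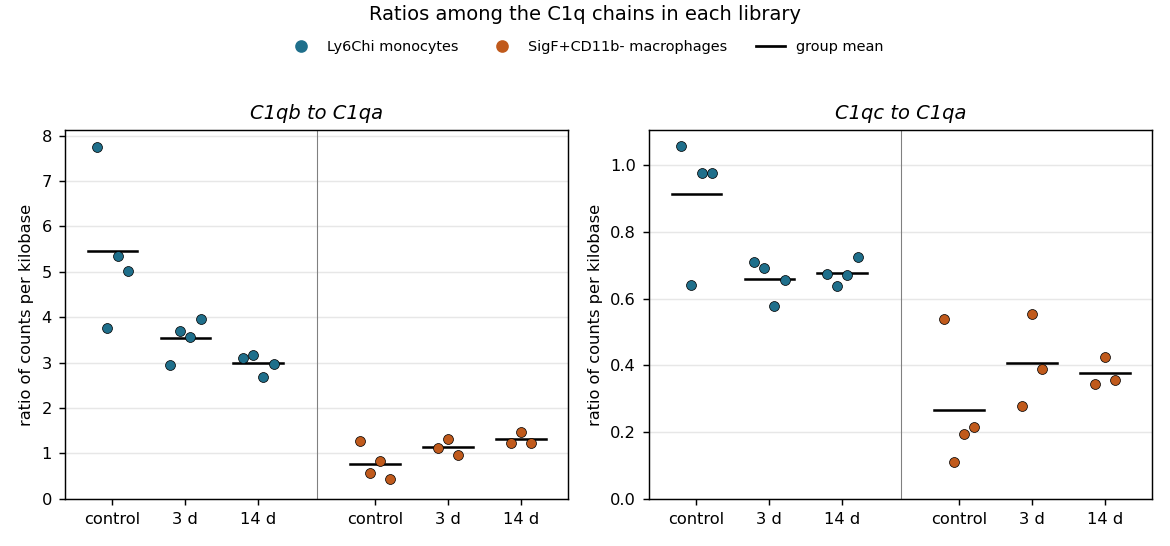
Ratios of counts per kilobase of exon between the C1q chains in each library of monocytes (blue) and macrophages (orange). Points are libraries and bars group means, and the C1qb to C1qa ratio lies between 2.68 and 7.75 in monocytes and between 0.446 and 1.48 in macrophages.

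*C3ar1*, the receptor for C3a, was higher at 14 d in both cell types. In monocytes it was at 16.3, 21.1, 12.8 and 12.7 CPM in controls, 21.0, 6.60, 71.9 and 55.9 at 3 d, and 164, 273, 389 and 264 at 14 d. The 3 d libraries straddled the controls, 1 of them below all controls, while all 14 d libraries stood above them. The 14 d increase was 4.12 ± 0.62 (adjusted p = 0.00132) over control and 2.81 ± 0.58 (adjusted p = 0.00361) over 3 d. At 3 d the value was 1.31 ± 0.56 (adjusted p = 0.0651), called with library size scaling (1.80) and without 3 d replicate 1 (1.54) or 2 (1.69). In macrophages *C3ar1* was at 0.753, 2.28, 0.459 and 0.598 CPM in controls, 10.7, 5.51 and 9.91 at 3 d, and 41.1, 21.0 and 45.3 at 14 d. The 3 groups did not overlap and stood in the order of time. The increase was 3.11 ± 0.46 (adjusted p = 0.00682) at 3 d and 5.15 ± 0.47 (adjusted p = 3.20e-06) at 14 d against control, and 2.03 ± 0.43 (adjusted p = 0.00171) from 3 d to 14 d. At 3 d *C3ar1* was the 1 gene of 9 called higher (1.05% of all genes) and *C3* the 1 called lower (0.224%). The 3 d call was lost without 3 d replicate 1 (2.94) or 3 (3.04), and without control replicate 2 the changes were 3.83 at 3 d and 5.87 at 14 d.

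*C5ar1*, the receptor for C5a, did not follow *C3ar1*. In monocytes it was at 136, 121, 283 and 168 CPM in controls, 148, 49.98, 89.9 and 79.2 at 3 d, and 204, 225, 437 and 278 at 14 d. Control libraries overlapped those of 3 d and 14 d, while every 14 d library stood above every 3 d library. The change was -0.95 ± 0.35 at 3 d (adjusted p = 0.0320), the 1 call among the 9 genes in that comparison, where 14.4% of all genes were called lower and 36.8% higher. That call was lost with library size scaling (-0.46), and without control replicate 3 (-0.67) or 4 (-0.95) or 3 d replicate 2 (-0.71), 3 (-0.87) or 4 (-0.90). From 3 d to 14 d *C5ar1* rose by 1.64 ± 0.35 (adjusted p = 0.00334), and at 14 d against control it was not called (0.69 ± 0.34, adjusted p = 0.260). In macrophages it was at 294, 226, 419 and 371 CPM in controls, 65.0, 215 and 34.6 at 3 d, and 100.4, 139 and 60.0 at 14 d. Both later groups stood below all controls. The change was -1.64 ± 0.62 (adjusted p = 0.290) at 3 d and -1.71 ± 0.63 (adjusted p = 0.0388) at 14 d. Replicate 2 of the 3 d macrophages was the highest of its group, and without it the 3 d change was called (-2.67). The 14 d call was lost with library size scaling (-1.28), and without control replicate 1 (-1.75), 3 (-1.56) or 4 (-1.70) or 14 d replicate 1 (-1.75), 2 (-2.05) or 3 (-1.51).

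*C3* (chr17:57203970-57228136), the central component, was among the most abundant of the genes in monocytes and was not called there. It was at 1039.5, 1079, 683 and 466 CPM in control monocytes, 769, 651, 564 and 762 at 3 d, and 685, 508, 558 and 709 at 14 d. The groups overlapped throughout, with changes of -0.25 ± 0.23 at 3 d (adjusted p = 0.361) and -0.41 ± 0.23 at 14 d (adjusted p = 0.315). In macrophages *C3* was at 329, 336, 328 and 368 CPM in controls, 147, 263 and 189 at 3 d, and 197, 204 and 161 at 14 d. All later libraries stood below all controls, and the change was -0.77 ± 0.17 at 3 d (adjusted p = 0.0398) and -0.86 ± 0.17 at 14 d (adjusted p = 0.000556). The 14 d call was lost with library size scaling (-0.42). The 3 d call was lost without control replicate 1 (-0.79), 2 (-0.78), 3 (-0.79) or 4 (-0.71), 3 d replicate 1 (-0.58) or 3 (-0.71), or 14 d replicate 1 (-0.77), and when only the groups compared were fitted (-0.74).

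*Cfp* (chrX:20925454-20931555), which encodes properdin, was at 282, 412, 325 and 163 CPM in control monocytes, 573, 387, 417 and 376 at 3 d, and 340.5, 348, 298 and 223 at 14 d. The 3 d libraries lay above those of 14 d but overlapped the controls, and the change was 0.57 ± 0.24 at 3 d (adjusted p = 0.0579) and 0.03 ± 0.24 at 14 d (adjusted p = 0.957). At 3 d it was called with library size scaling (1.07), and without control replicate 2 (0.73), 3 d replicate 2 (0.66) or 14 d replicate 2 (0.59) or 4 (0.59). The monocyte step from 3 d to 14 d was -0.54 without a call. Over 9 other settings it ranged from -0.98 to -0.37 and was called in 5. In macrophages *Cfp* was at 207, 201, 231 and 199.9 CPM in controls, 33.5, 131 and 51.9 at 3 d, and 140.3, 123 and 93.5 at 14 d. Every later library was below every control, but neither change was called, at -1.54 ± 0.39 for 3 d (adjusted p = 0.0995) and -0.82 ± 0.38 for 14 d (adjusted p = 0.0785). Without 3 d replicate 2 both were called, at -2.26 and -1.004, and the 14 d change also without 3 d replicate 1 (-0.95). The 3 d change was also called with DESeq2 (-1.50). The step from 3 d to 14 d was 0.72 ± 0.40 (adjusted p = 0.144), and it was called in 5 of 9 other settings, from 0.85 with DESeq2 to 1.21 with TMM factors of strongly expressed genes, and without 3 d replicate 2 (1.26). *Cfp* is X-linked, and the 14 d libraries differed from the others in sex.

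*Cfb* (chr17:34856374-34862518), which encodes factor B, varied least. Its monocyte libraries ranged from 10.7 to 16.4 CPM in controls, 11.2 to 15.8 at 3 d and 10.8 to 12.4 at 14 d. Its macrophage libraries ranged from 19.7 to 33.1, 14.8 to 34.5 and 14.2 to 26.5 CPM. Each later group overlapped its controls, and the 4 changes against control lay between -0.44 and 0.05 and were not called. Without 3 d replicate 2 the macrophage changes were called, at -0.81 for 3 d and -0.63 for 14 d. Of its 2825 exonic bases 2246 are shared with the read-through gene *Gm20547* on the same strand, which had 0 to 2 counts in the monocyte libraries. How reads of the shared bases were counted is not known here, so the level of *Cfb* per kilobase of exon is uncertain.

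*Serping1* (chr2:84765387-84775444), the C1 inhibitor gene, had the lowest level per kilobase of exon of the 9 genes in all groups but control macrophages. In monocytes it had 28, 14, 64 and 31 counts in controls, 4, 19, 20 and 5 at 3 d, and 0, 8, 14 and 11 at 14 d, and the 14 d libraries lay below the controls without a call (-1.86 ± 0.82, adjusted p = 0.199). In macrophages it was at 0.753, 0.760, 0.524 and 0.996 CPM in controls (8 to 15 counts), 2.79, 0.543 and 0.626 at 3 d, and 5.62, 3.40 and 4.23 at 14 d (25 to 39 counts). The 14 d libraries stood above all others, with an increase of 2.52 ± 0.53 over control (adjusted p = 0.000702) and of 1.70 ± 0.56 over 3 d (adjusted p = 0.0156). The second call was lost without 3 d replicate 2 (1.09) or 3 (1.21) or 14 d replicate 1 (1.45), and without 3 d replicate 1 the value was 2.75. The mean log2 CPM of *Serping1* in macrophages was 0.68, which places it in the class of weakly expressed genes of which 77.9% were called higher at 14 d.

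**Figure D3:**
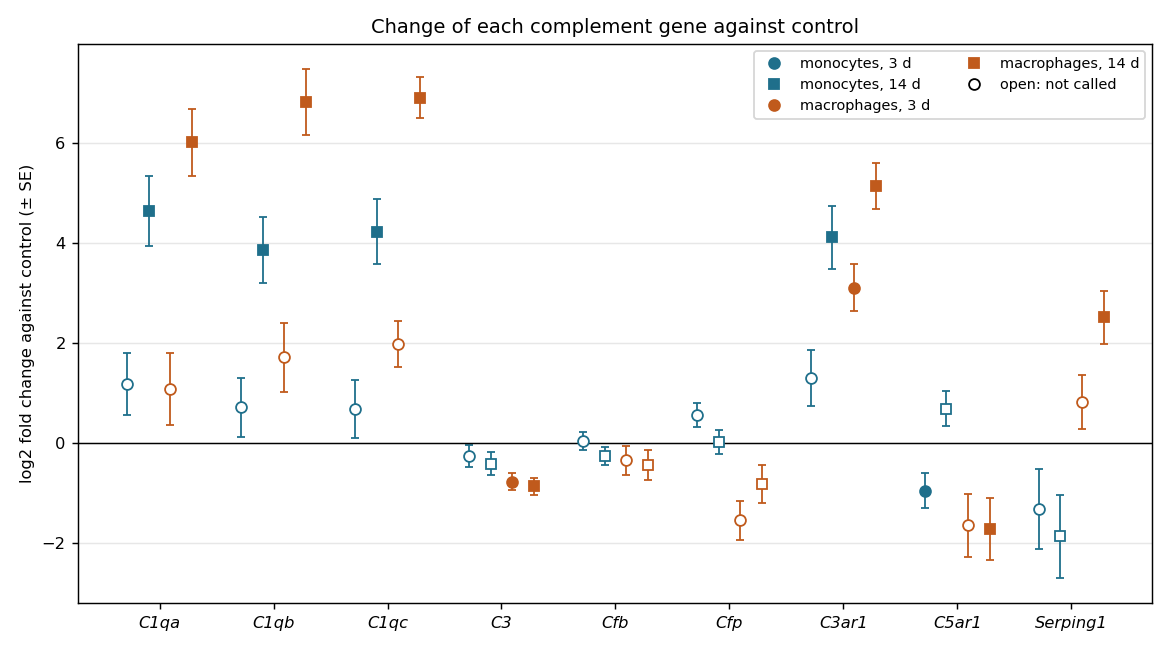
Log2 fold change against control with its standard error for the 9 genes at 3 d (circles) and 14 d (squares) in monocytes (blue) and macrophages (orange), from edgeR. Filled symbols were called. The 14 d values of the C1q chains and C3ar1 lie between 3.86 and 6.91.

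The calls were compared under 5 scalings where weakly expressed genes moved as a class. In 14 d macrophages the C1q chains, *C3ar1* and *Serping1* were called under each scaling, with *C1qa* between 6.01 and 6.61 and *C3ar1* between 5.15 and 5.72. *C3* and *C5ar1* were called with TMM and DESeq2 and not with the other 3 scalings, and *C3* came to -0.31 when TMM factors used strongly expressed genes alone (mean log2 CPM over 5). In 3 d monocytes *C5ar1* was likewise called with TMM and DESeq2 alone, while *C1qa*, *C3ar1* and *Cfp* were called with each scaling except TMM.

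**Figure D4:**
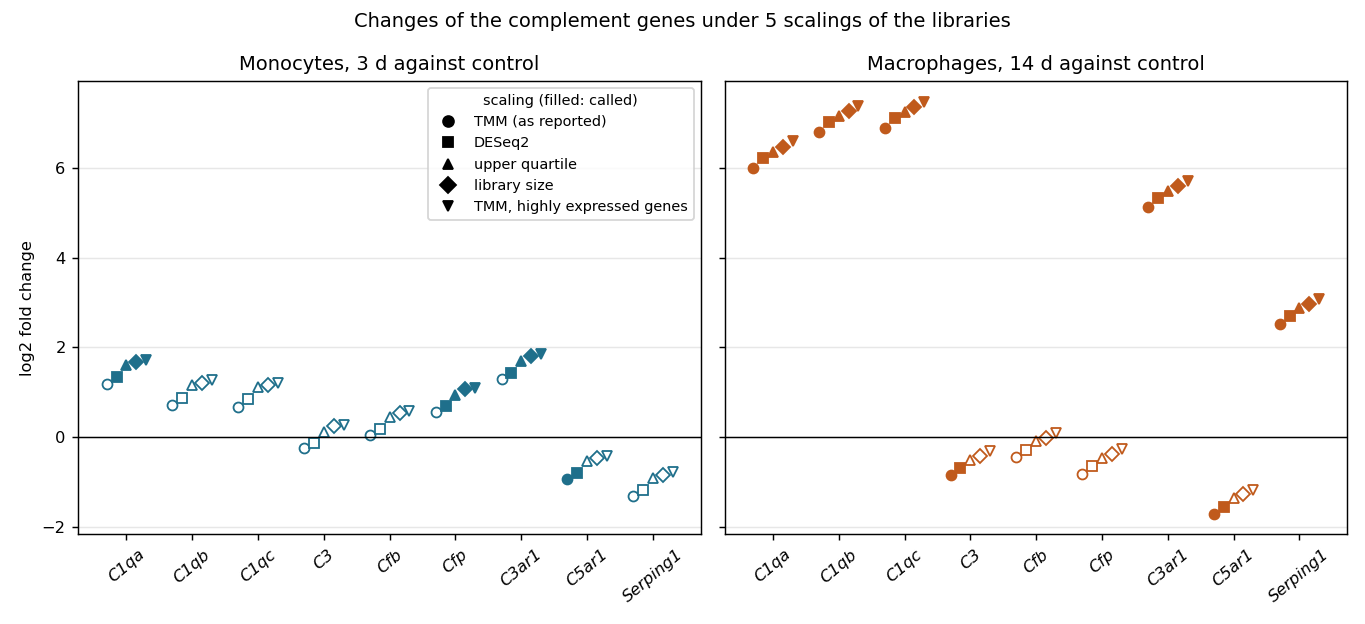
Log2 fold changes of the 9 genes in 3 d monocytes and 14 d macrophages against control under 5 scalings of the libraries, with filled symbols for calls. The C1q chains, C3ar1 and Serping1 are called under all 5 at 14 d in macrophages, and C3 and C5ar1 under 2.

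Per kilobase of exon, the levels of the 9 genes changed places with time. In control monocytes *Cfp* (170 CPM per kilobase), *C3* (159) and *C5ar1* (68.9) led, with neighbours in this order overlapping, and *C1qb* (36.8) followed. At 14 d *C1qb* led alone at 534 CPM per kilobase, its lowest library above every library of *C1qa* (183), and *C1qa*, *Cfp* (174), *C1qc* (123), *C3* (120) and *C5ar1* (111) each overlapped the next, above *C3ar1* (63.3). In control macrophages *C5ar1* (127 CPM per kilobase) and *Cfp* (121) overlapped at the top, *C3* (66.2) and *Cfb* (9.72) stood apart below them, and each C1q chain was under 2. At 14 d *C1qb* (152) and *C1qa* (119) led and overlapped, and *Cfp* (68.5) came next. These levels are descriptions and were not tested between genes.

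Macrophages and monocytes were compared in a single fit of the 22 libraries. In controls, macrophages were lower for *C1qb* (-5.13 ± 0.78, adjusted p = 2.56e-05), *C1qc* (-4.55 ± 0.70), *C3ar1* (-4.34 ± 0.67), *C1qa* (-2.36 ± 0.73), *C3* (-1.63 ± 0.21) and *Cfp* (-0.86 ± 0.30), 6 of 9 genes against 19.7% of the 26692 tested. *Cfb* was called higher (0.59 ± 0.23, adjusted p = 0.0407) at the edge of the fold threshold, and 24.5% of all genes were called higher. At 3 d the same 6 genes were called lower (42.7% of all genes) and none higher (20.4%), with *Cfp* at -3.16 ± 0.37 (adjusted p = 3.87e-07). At 14 d *C1qb* (-2.51 ± 0.72), *C1qc* (-2.20 ± 0.61), *C3* (-2.43 ± 0.24), *Cfp* (-2.06 ± 0.35), *C3ar1* (-3.63 ± 0.66) and *C5ar1* (-2.24 ± 0.54) were called lower (23.3% of all genes) and *Serping1* higher (2.77 ± 0.75, 40.4% of all genes). At 14 d the median of all genes was 0.97 and became 2.05 with library size scaling, with which *C1qb* (-1.40), *C1qc* (-1.08) and *C5ar1* (-1.13) were no longer called. *C3*, *C3ar1* and *Cfp* were called at 14 d in all 9 other settings tried. *Cfb* at 14 d was 0.06 in the full fit without a call. Over the 9 other settings it ranged from 0.03 to 1.17 and was called higher in 3. *Cfb* and *Cfp* in controls were called in 5 and 6 of 9 other settings, and in 13 and 15 of 22 fits that left out 1 library, over ranges of 0.47 to 0.71 and -1.05 to -0.65. *Cfb* was lost without monocyte control 1, 3 or 4, macrophage control 1, 2 or 4 or any 14 d macrophage library, and *Cfp* without monocyte control 2 or 3, monocyte 14 d 4, macrophage control 1, 2 or 4 or macrophage 3 d 3. Without macrophage control replicate 3 the control differences of *C1qa*, *C1qb* and *C1qc* were -3.07, -6.10 and -5.26, and without replicate 2 that of *C3ar1* was -5.04. At 3 d *C1qa* was lost without macrophage replicate 2 (-2.14) or 3 (-2.05) and was -2.03 without monocyte replicate 3, *C1qb* was -3.67 without macrophage replicate 3 and moved by about as much without monocyte replicate 3, *Cfp* was -2.51 without macrophage replicate 1, and *C5ar1*, not called in the full fit (-0.37 ± 0.51), was called without macrophage replicate 2 (-1.15). Cell type and sort or library set cannot be told apart here.

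Whether the change after tamoxifen differed between the cell types was tested as an interaction, macrophage change minus monocyte change. The median of all genes in this term was -0.63 at 3 d and 0.48 at 14 d, and became -0.905 and 1.16 with library size scaling. At 3 d *Cfp* differed (-2.30 ± 0.46, adjusted p = 0.00308), the 1 gene of 9 called lower (15.2% of all genes) with none called higher (3.51%), and without macrophage 3 d replicate 2 the value was -2.92. Without that library *C5ar1* was also called (-1.82 against -0.90 in the full fit), and *C3* was called without monocyte control 2 (-0.88 against -0.71). At 14 d the change was smaller or more negative in macrophages for *C5ar1* (-2.77 ± 0.71, adjusted p = 0.00619), *Cfp* (-1.20 ± 0.45, adjusted p = 0.0416) and *C3* (-0.80 ± 0.30, adjusted p = 0.0399), against 19.9% of all genes called lower. It was larger for *Serping1* (4.05 ± 1.02, adjusted p = 0.00359), *C1qb* (2.62 ± 0.97, adjusted p = 0.0442) and *C1qc* (2.35 ± 0.89, adjusted p = 0.0461), against 16.9% called higher. *C5ar1*, *Serping1* and the 3 d value of *Cfp* were called in every alternative in which the gene was tested. The *C3* difference was called in 1 and the 14 d *Cfp* difference in 3 of 9 other settings. Of 22 fits that left out 1 library, 10 called *C1qb* (2.18 to 3.59), 10 *C1qc* (1.88 to 3.07), 10 *C3* (-0.97 to -0.59) and 8 *Cfp* (-1.41 to -1.003), so these 4 hold or fail with single libraries. *C1qb* and *C1qc* were both lost without monocyte control 2, 3 or 4, monocyte 3 d 4, monocyte 14 d 1, 2 or 4, macrophage control 1, 2 or 4 or macrophage 14 d 1 or 3. *C3* was lost without monocyte control 3 or 4, monocyte 14 d 1 or 4, macrophage control 3 or 4 or any of the later macrophage libraries. *Cfp* was lost without monocyte control 1, 3 or 4, any 14 d monocyte library, macrophage control 1, 3 or 4, macrophage 3 d 1 or 3 or macrophage 14 d 2 or 3. *C1qa* (1.05 ± 0.98, adjusted p = 0.412) and *C3ar1* (0.71 ± 0.86, adjusted p = 0.530) rose in both cell types without a called difference.

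Of 49 other complement genes listed by role, 39 were tested in monocytes and 40 in macrophages. In 3 d monocytes 16 of 39 were called higher and 7 lower, shares near those of all genes (36.8% and 14.4%), with a median of 0.46 against 0.22, and 14 of the 16 had a mean below 5 CPM. Of those named by the rule, *Fcnb*, a ficolin of the lectin pathway, rose from 2.63 ± 0.60 to 15.4 ± 11.9 CPM and *C1rl* from 15.2 ± 5.8 to 30.6 ± 12.9, while *Cd93* (-1.21), the integrin chains *Itgb2* (-0.87) and *Itgam* (-0.67) of complement receptor 3, the regulator *Cr1l* (-0.86) and the scavenger receptor *Lrp1* (-0.85) fell. In 14 d monocytes 2 of 39 were called higher and 2 lower, shares near those of all genes (3.22% and 5.34%). The higher ones were *C1rl* (1.59 ± 0.37) and *C1ra* (0.86 ± 0.25). The lower ones were *Cd55* (-2.25 ± 0.46), which encodes decay-accelerating factor, and *Itgb2* (-0.64 ± 0.14). *C1ra* and *Cd55* were named after their values were seen. The list median there was 0.30 against 0.09 for all genes. In 3 d macrophages 1 of 40 was called higher and none lower, where 1.05% and 0.224% of all genes were. This was *Clu*, the gene of the terminal pathway regulator clusterin, at 8.86 ± 1.70 against 3.62 ± 0.91 CPM (1.28 ± 0.26, adjusted p = 0.0272). In 14 d macrophages 20 of 40 were called higher and 7 lower, where 39.4% and 22.9% of all genes were, with a median of 1.61 against 0.18, and 14 of the 20 had a mean below 5 CPM. *Itgam* (5.45 ± 0.57), which shares 3450 exonic bases with *Gm49368* on the same strand, *Clu* (3.66 ± 0.26), *Fcna* (2.99 ± 0.34) and *Colec12* (1.29 ± 0.23) rose. *Cd93* (-2.01 ± 0.30), *Lrp1* (-1.24 ± 0.19), *Itgax* (-0.95 ± 0.14), *Itgb2* (-0.91 ± 0.14) and *Cr1l* (-0.89 ± 0.20) fell. From 3 d to 14 d, 9 of 39 were called higher and 16 lower in monocytes (12% and 34.5% of all genes), and 18 of 40 higher and 8 lower in macrophages (36.3% and 20.0%).

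The genes whose levels moved most like the C1q chains were found by the root mean square difference of centred log2 CPM among genes with a mean log2 CPM above 3. Over the 12 monocyte libraries *Myo1e*, an unconventional myosin, was nearest to the mean of the 3 chains (0.50), followed by the lysosomal tetraspanin gene *Cd63* (0.60) and the growth factor gene *Igf1* (0.61), where the chains themselves varied by 2.07. *Emp1* (0.48), *Myo1e* (0.56) and *Cdh1* (0.58) were nearest to *C3ar1*, and the formyl peptide receptor gene *Fpr2* (0.29) to *C5ar1*. Over the 10 macrophage libraries *Pglyrp1* (0.98) and *S100a9* (1.08), both abundant in neutrophils, were nearest to the chains, which varied by 2.87, and *Aloxe3* was nearest to both *C5ar1* (0.42) and *Cfp* (0.28). These are orders of likeness over libraries that share the same groups, and no test was made of them.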

How the data were processed

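RNA of 12 monocyte and 10 macrophage samples was analysed from 2 gene count tables. The deposited values are raw read counts per gene, which the authors made from poly(A) libraries of a kit that does not mark strand, and the submitters' processing notes name STAR 2.7.2c and 2.7.3a, featureCounts 1.6.3, DESeq2 1.26.0 and 1.28.1, and GRCm38. The annotation release and the strand setting of the counting are not given in the sources used here. Samples were grouped by the labels, and totals ran from 4610720 to 28789639 counts. Counts were fitted with edgeR 4.0.16 (quasi-likelihood, robust, TMM factors, filterByExpr) in R 4.3.3, with limma 3.58.1, separately per cell type over its 3 groups and once over all 22 libraries for the cell type contrasts and interactions. P-values were adjusted by the Benjamini-Hochberg method over all genes tested. Log2 CPM used a prior count of 2. Positions and exon lengths came from GENCODE, and promoters from RefSeq. The fits were tested on simulated counts, where many changes of moderate and of large size went uncalled, so a gene that was not called is not shown to be unchanged. Alternatives were DESeq2 1.42.0, other scalings and filters, a replicate block, fits of only the groups compared, and leaving out each library. The members and gene lists were chosen with earlier results of these data known. Of the other complement genes, the text names those called against control with a mean log2 CPM above 1 in that cell type, at most 12 by size of change, and the 3 genes most like a member were sought among genes above 3. Some genes that the naming rule or the marker lists hold are not reported here.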

Additional observations from a re-analysis of the deposited data

Results flagged for a closer look

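In 3 of 36 groups of 4 libraries, 1 library lay far from the rest by Dixon's test, where chance gives about 1 in 20. These were *C1qc* in macrophage control replicate 3 (1.44 CPM), *C3ar1* in macrophage control replicate 2 (2.28 CPM) and *Cfb* in 3 d monocyte replicate 1 (11.2 CPM). The change after tamoxifen was compared between macrophages and monocytes by the interaction term of the edgeR fit of 22 libraries. A difference was called for *Cfp* at 3 d (-2.30). At 14 d it was called for *C1qb* (2.62), *C1qc* (2.35), *C3* (-0.80), *Cfp* (-1.20), *C5ar1* (-2.77) and *Serping1* (4.05). With 1 library left out, *C1qb*, *C1qc* and *C3* at 14 d were each called in 10 of 22 fits, and *Cfp* at 14 d in 8. In 9 other settings *C3* was called in 1 and *Cfp* at 14 d in 3.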

How the results depend on the processing

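The C1q chains and *C3ar1* at 14 d were called against control and against 3 d in both cell types in every alternative. The number of the 9 genes called in 3 d monocytes, 1, became 4 with DESeq2, 3 with library size, upper quartile or high-level TMM scaling (factors of strongly expressed genes alone), 3 with the replicate block, 2 with only the groups compared, and 0 to 3 with a library left out. In 3 d macrophages 2 became 4 with DESeq2, 0 with the replicate block, 1 with only the groups compared and 0 to 5 with a library left out. From 3 d to 14 d in monocytes 5 became 6 with DESeq2 and 8 with high-level TMM. The count there became 7 with library size or upper quartile scaling, and with genes above a mean log2 CPM of 1. In 14 d macrophages 7 became 4 with that filter, which removes *Serping1* and under which *C3* and *C5ar1* were no longer called. The interaction count at 3 d, 1, became 2 with library size or high-level TMM scaling and 1 to 2 with a library left out, and that at 14 d, 6, became 3 with the filter and 2 to 6 with a library left out.

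Values that changed sign were not called. In 3 d monocytes *C3* was 0.25 (library size), 0.12 (upper quartile), 0.28 (high-level TMM) and 0.13 (filter), and *Cfb* -0.21 with no filter and -0.11 to 0.20 with a library left out. In 14 d monocytes *Cfp* was -0.062 with no filter and -0.18 to 0.24 with a library left out, and from 3 d to 14 d *C3* was 0.0091 with no filter. In 3 d macrophages *Serping1* was -0.36 to 1.25 with a library left out, and in 14 d macrophages *Cfb* was 0.095 with high-level TMM. From 3 d to 14 d in macrophages, under DESeq2, library size, upper quartile, high-level TMM and the filter, *C3* was 0.037, 0.33, 0.22, 0.40 and 0.25, *C5ar1* 0.053, 0.32, 0.24, 0.40 and 0.25, and *Cfb* 0.018, 0.30, 0.20, 0.37 and 0.23, with *C5ar1* at 0.12 under the block, and ranges of -0.65 to 0.77 for *C5ar1* and -0.47 to 0.18 for *Cfb* with a library left out. Between cell types at 3 d *C5ar1* was 0.038 with only the groups compared and -1.15 to 0.42 with a library left out, *Cfb* -0.39 (upper quartile), -0.093 (filter), -0.042 (block) and -0.25 to 0.57, and *Serping1* -0.26 to 1.38. At 14 d *Cfb* was -0.17 to 0.25 with a library left out. In the interactions *C1qa* at 3 d was -0.74 to 0.42 with a library left out, and *Cfb* at 14 d 0.13 (library size), 0.15 (upper quartile), 0.24 (high-level TMM) and 0.054 (filter). The cause was not tested.

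Replicate numbers were shared between groups. Deviations of same-numbered control and 14 d monocytes correlated at 0.089 to 0.52 (mean r 0.28), against a mean of -0.093 for differently numbered ones. For same-numbered samples of the other group pairs mean r was -0.061 to 0.072. The labels do not say what a shared number means, and the main fits used no replicate block. Whether control and 14 d monocytes of the same number shared a batch was not tested. With the replicate block, calls were lost for *C3* (-0.76) and *C3ar1* (2.86) in 3 d macrophages, *C5ar1* in 14 d macrophages (-1.86), *Cfb* between control cell types (0.58), and the 14 d interactions of *C1qb* (2.17) and *C3* (-0.78), and gained for *C1qa* (1.13) and *Cfp* (0.62) in 3 d monocytes. Depth limits *Serping1* and the control macrophage levels of the C1q chains and *C3ar1* most.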
